A study of Drosophila melanogaster with 70 samples.

Results

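Topologically associating domains of Drosophila melanogaster embryos at stage 15 (14 to 16 h after egg laying, when organs have formed) were set against those of the stage 5 blastoderm (nuclear cycle 14, when the zygotic genome becomes broadly active). A domain was the stretch between neighbouring boundary midpoints of 1 list on a chromosome arm, and boundaries of the 2 stages were partners when their midpoints lay within 2.5 kb. The stage 15 list held 2785 boundaries and 2780 domains, and the stage 5 control list held 2591 boundaries and 2586 domains. The comparison drew on 11 of the 70 samples of the series, 8 Hi-C libraries at stage 15 and 3 at stage 5.

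Hi-C ligates and sequences DNA ends that lie near each other in the nucleus, and each library came from 50 to 100 fixed embryos staged by hand. The stage 15 libraries were 2 for each combination of sex (male or female) and RNAi (mof or control) in an Sxl-GFP background, in which GFP-positive embryos were female and GFP-negative ones male. All 8 name the same boundary list, so it may hold mof RNAi libraries as well, and which of the 8 were pooled is not stated. The stage 5 libraries came from control RNAi embryos that were not sexed. In all groups the RNAi was maternal, from mothers carrying a mat-a-tubGal4 driver of the germline (stock 7062 in the stage 15 strains and 7063 in the stage 5 strains) with RNAi stock 36304 for control or 58281 for mof. MOF is the histone H4 acetyltransferase that acts in dosage compensation of the male X. Sorting, sex, driver stock and the mof RNAi libraries at stage 15 therefore cannot be told apart from stage. The lists hold no expression values, so neither the stages nor the depletion could be checked on marker genes.

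In flies, domains appear at the onset of zygotic transcription. Many of their boundaries lie at broadly expressed genes and are bound by insulator proteins such as BEAF-32, CP190 and CTCF. Domains are known for limiting which promoters an enhancer contacts, and developmental genes often lie in long, gene-poor domains with their enhancers. A list of boundaries can thus be read as the set of neighbourhoods in which each gene sits.

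Each stage had 1 pooled list, with no read counts, so the depth is unknown and there is no spread between replicates. No difference below was tested and no p-value was computed. Shares carry 95% Wilson intervals and medians carry exact binomial intervals at the same level, which treat domains, boundaries or genes as independent and cover counting error only. As the available yardstick, the same reading was made between the stage 5 mof RNAi list (2499 boundaries, 2 libraries) and the stage 5 control list. In that comparison the effect of the RNAi and the variation between lists cannot be told apart.

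The 1598 boundaries with a partner (1262 of the pairs in the same 2.5 kb bin) cut the 5 large arms into 1593 blocks. A block with 1 domain at both stages was called kept. A block with several domains at stage 15 and 1 at stage 5 was called split, and one with 1 at stage 15 and several at stage 5 merged. A block with several at both was called rearranged.

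Kept domains made up 29.7% of the stage 15 domains and 32% of the stage 5 domains, which is 827 at each stage (interval 30.2 to 33.8% at stage 5). In split blocks there were 536 domains at stage 15 (19.3%), against 232 at stage 5 (8.97%). In merged blocks there were 148 domains at stage 15 (5.32%), against 326 at stage 5 (12.6%). Rearranged blocks, 386 in all, took the largest share at both stages, with 1234 domains at stage 15 (44.4%) against 1173 at stage 5 (45.4%). The remaining 35 domains at stage 15 and 28 at stage 5 lay beyond the outermost shared boundary of an arm. By length the kept class was smaller than by number: of the block length at stage 5, kept blocks held 23.9%, split blocks 15.3%, merged blocks 9.35% and rearranged blocks 51.5%.

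When the stage 5 control domains were read against the stage 5 mof RNAi list, 58.4% were kept, 5.38% were split, 16.4% were merged and 19.4% were rearranged. Against the stage 15 list, fewer were thus kept and more were rearranged than against the mof RNAi list, and these intervals did not overlap. The merged share was lower against stage 15 (326 domains) than against the mof RNAi list (425 domains). Split domains were 8.97% (interval 7.93 to 10.1%) against stage 15 and 5.38% (4.57 to 6.31%) against mof RNAi. The lists differ in size, with 2785 boundaries at stage 15, 2591 in the control list and 2499 after mof RNAi. With the stage 15 list cut to the size of the control list, 436 stage 5 domains were merged and 206 split. The merged count was then not below that against the mof RNAi list, which was not matched in size.

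**Figure D1:**
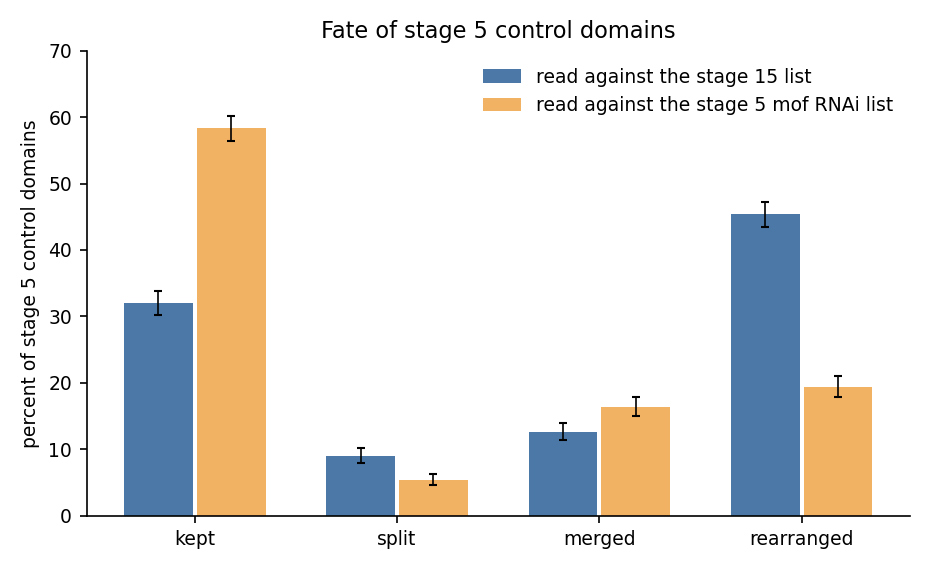
Percent of the 2586 stage 5 control domains (vertical axis) that were kept, split, merged or rearranged when read against the stage 15 list (blue) or the stage 5 mof RNAi list (orange); error bars are 95% Wilson intervals. Kept domains reach 32% against stage 15 and 58.4% against mof RNAi, and rearranged ones 45.4% and 19.4%.

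The bin numbers in the stage 5 lists show that bins were left out of that map (4770 in the control list), and the numbers of the stage 15 list show 0. The share of blocks with any left-out bin differed by class. It was 18.3% of kept blocks, 36.5% of merged blocks, 55.6% of split blocks and 68.9% of rearranged blocks. The blocks also differed in length, with stage 5 medians of 30, 68.75, 70 and 133.8 kb in that order. A longer block has more room for such a bin, and the shares were not adjusted for length. Among the 1678 stage 5 domains without left-out bins, 40.3% were kept, 6.14% split, 15.3% merged and 38.1% rearranged against stage 15. The same domains were kept for 65.7%, split for 3.40%, merged for 16.9% and rearranged for 13.9% against the mof RNAi list. Among the 908 stage 5 domains with left-out bins, 16.6% were kept and 14.2% split against stage 15. The part of left-out bins in the differences between classes was not tested.

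Kept domains were short and split ones long. The median kept domain was 30 kb at stage 15 and 30 kb at stage 5 (interval 30 to 32.5 kb at both). In split blocks the median domain was 30 kb at stage 15, against 70 kb at stage 5 (65 to 75 kb). In merged blocks it was 70 kb at stage 15 (62.5 to 77.5 kb), against 30 kb at stage 5 (27.5 to 32.5 kb). By the rule, the undivided side of a split or merged block spans the whole block and so is longer than its pieces. The pieces on the divided side of a split or merged block had the median length of kept domains. Rearranged domains had medians of 40 kb at stage 15 and 45 kb at stage 5. Over the whole lists the medians were 35 kb at stage 15 and 38.6 kb at stage 5.

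**Figure D2:**
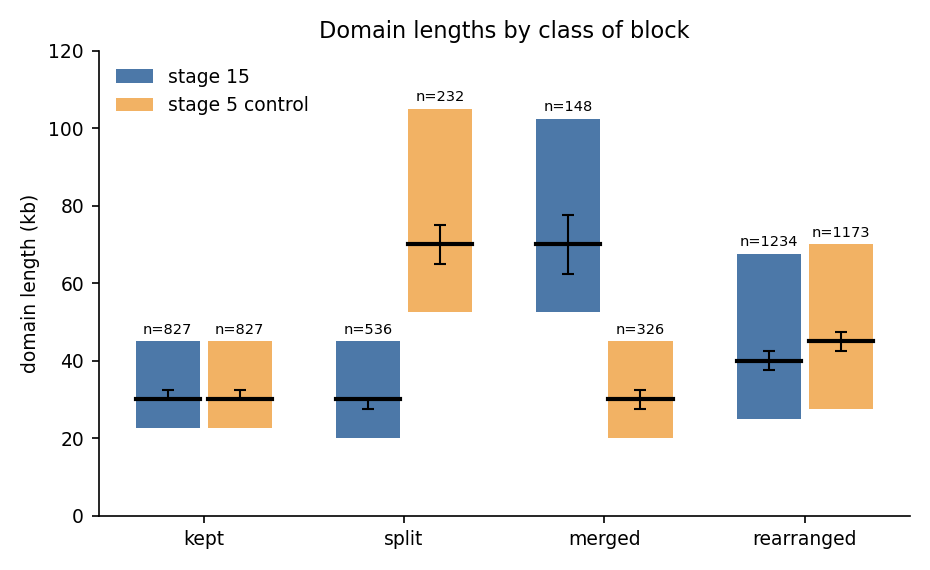
Domain length in kb (vertical axis) by class of block at stage 15 (blue) and stage 5 control (orange). Boxes run from the first to the third quartile, black lines are medians with exact 95% intervals, and n counts domains. Split and merged blocks have medians of 30 and 70 kb at stage 15 and 70 and 30 kb at stage 5. By the rule the undivided side of such a block is the longer one.

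The class of a stage 5 domain went with its length, which partly follows from the rule, since a long stretch has more room for a boundary. Kept domains were 38.5% of those under 20 kb (n = 325), 44.0% from 20 to under 40 kb (n = 975), 30.2% from 40 to under 60 kb (n = 562), 17.5% from 60 to under 100 kb (n = 485) and 7.53% of those of 100 kb and over (n = 239). Split domains were 0 of 325, 2.26%, 9.79%, 18.4% and 27.6% in the same order of length, and merged ones 24.3%, 14.5%, 10.5%, 7.84% and 3.77%. Against the mof RNAi list the kept share also came down with length but stayed higher, at 67.1%, 66.0%, 60.7%, 48.7% and 29.7%. Where no bin was left out at stage 5, the shares kept at stage 15 were 39.8%, 46.9%, 37.3%, 25.3% and 6.25%, the last over only 32 domains.

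**Figure D3:**
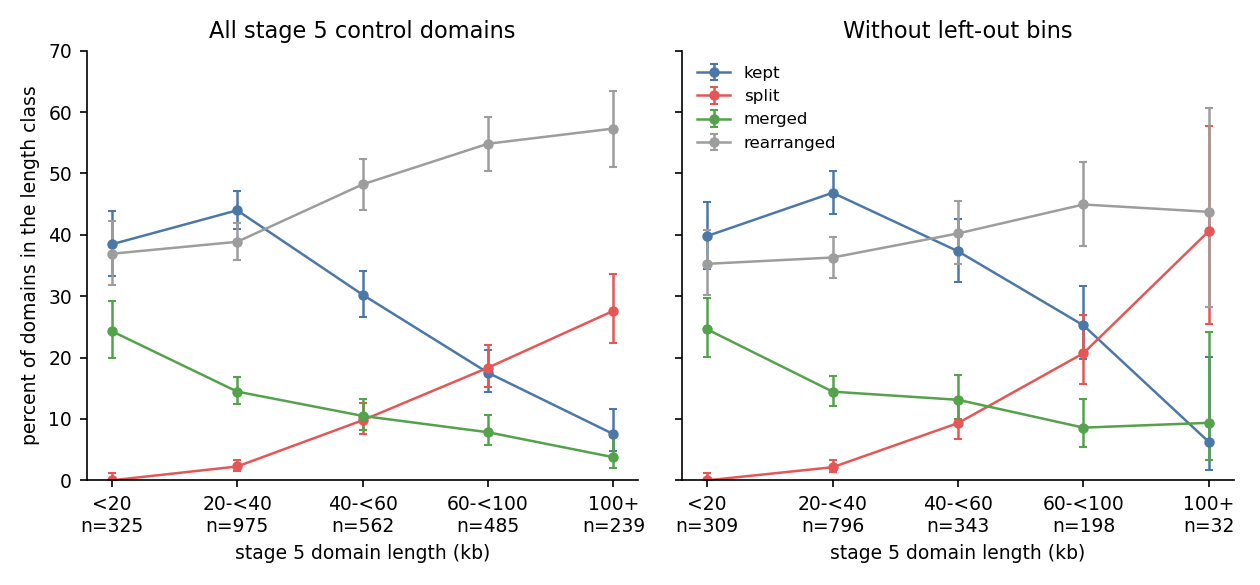
Percent of stage 5 control domains of each class (vertical axis, 95% Wilson intervals) by length at stage 5 in kb (horizontal axis), for all domains (left) and for those without left-out bins (right). The kept line peaks at 20 to under 40 kb, at 44.0% on the left and 46.9% on the right, and the split line climbs with length.

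Most splits and merges involved 2 pieces of unequal length. A single stage 5 domain became 2 stage 15 domains in 177 blocks, 3 in 44, 4 in 7, 5 in 2 and 6 in 2. A single stage 15 domain covered 2 stage 5 domains in 124 blocks, 3 in 19, 4 in 4 and 5 in 1. In the splits into 2 the smaller piece had a median of 20 kb and the larger 42.5 kb, and the smaller took a median of 36% of the length. In the merges of 2 the medians were 20 and 40 kb, and the smaller piece took 33.3%. Of the rearranged blocks, 128 had 2 domains at each stage and so differed in the place of 1 inner boundary. That boundary lay a median of 12.5 kb from its stage 5 place, by at most 5 kb in 36 blocks and by at most 10 kb in 60.

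On the 5 arms, the kept share of stage 5 domains was 32.5% on 2L, 32.4% on 2R, 27.6% on 3L, 35.7% on 3R and 31.4% on X. The intervals of 3L (24.1 to 31.5%) and 3R (32 to 39.6%) did not overlap, and the interval of X (27.3 to 35.8%) held the value of all autosomes, 32.1%. Split domains were 6.93% of stage 5 domains on X and 9.42% on the autosomes, with overlapping intervals.

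The boundaries that separate the classes differed in where they lie. An annotated end of a protein-coding gene lay within 2.5 kb of 76.4% of all stage 15 boundaries and 76.1% of all stage 5 boundaries. Shared boundaries exceeded this, at 88.9% in the stage 15 list and 88.5% in the stage 5 list. Of the 304 stage 15 boundaries inside split blocks, 204 had a gene end in the window (67.1%, interval 61.6 to 72.1%). Of the 178 stage 5 boundaries inside merged blocks, 103 did (57.9%, 50.5 to 64.9%). Both kinds that are present at 1 stage were thus below the shared ones.

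The authors' score of a boundary runs from negative to positive on a scale that is not stated and was ranked only within its own list. The shared boundaries had a median percentile of 40.5 in the stage 15 list and 39.2 in the stage 5 list. Boundaries inside split blocks had a median percentile of 72.4 in the stage 15 list, and those inside merged blocks 72.9 in the stage 5 list. Scores above 0 were held by 24.3% of the boundaries inside split blocks, against 6.32% of the shared ones in the stage 15 list. They were held by 42.1% of the boundaries inside merged blocks, against 11.6% of the shared ones in the stage 5 list. Boundaries present at a single stage thus lay toward the positive end of their lists.

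The stage 5 mof RNAi list gives a second reading of the same boundaries. It held 7.89% of the stage 15 boundaries inside split blocks (24 of 304, interval 5.36 to 11.5%) and 9.08% of those inside rearranged blocks. It held 68.0% of the stage 5 boundaries inside merged blocks (121 of 178, 60.8 to 74.4%) and 63.7% of the stage 5 ones inside rearranged blocks. Of the boundaries shared between the stages it held 87.4% of those in the stage 15 list and 87.9% of those in the stage 5 list. Boundaries inside split blocks, which by the rule are not in the stage 5 control list, were thus mostly not in the mof RNAi list either, while most of those inside merged blocks were called in both stage 5 lists. Both end boundaries of a block were in the mof RNAi list for 79.7% of kept, 79.3% of split, 73.6% of merged and 74.6% of rearranged blocks. It held both ends and no boundary inside for 642 of the 827 kept (77.6%) and 144 of the 232 split blocks (62.1%). The same stage 5 boundaries, ends and inner ones, were in it for 67 of the 148 merged (45.3%) and 161 of the 386 rearranged blocks (41.7%).

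The 10 boundaries with the most negative scores among those inside merged blocks lay nearest to x16, Sry-alpha, Mi-2, lilli, B52, CG17568, Dpm3, arm, dlg1 and bel, and all but the one at dlg1 were also in the mof RNAi list. Several of these genes are broadly used: x16 and B52 encode splicing factors, Mi-2 a chromatin remodeller, arm the fly beta-catenin and bel an RNA helicase. Of the 10, which were picked by score, all lay within 1 kb of a gene end except those nearest B52, lilli and CG17568. These lay 1.19, 1.57 and 13.5 kb away, the last inside the gene brat. Of all stage 5 boundaries inside merged blocks 36.5% lay within 1 kb of a gene end, and of the shared stage 5 ones 71.5%. The corresponding 10 inside split blocks at stage 15 were not in the mof RNAi list. They lay nearest to Vtld, serp, CG4259, Myo81F (4 boundaries), Hrs, Muc14A and Sdic1. Their blocks had between 1 and 107 left-out bins at stage 5, the 107 in the block of Myo81F, a very long gene in the pericentric heterochromatin of 3R. The part of these bins in the splits was not tested.

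The 13842 protein-coding genes on the arms were placed by their midpoints. Kept blocks held 4435 of them (32%), split blocks 2230 (16.1%), merged blocks 1214 (8.77%) and rearranged blocks 5884 (42.5%). Kept blocks were the most gene-dense, with 14.5 genes per 100 kb, against 11.4 in split, 10.2 in merged and 8.93 in rearranged blocks. In blocks without left-out bins the densities were 16.3, 15.4, 11.7 and 15.3 in that order, so that merged blocks were then the sparsest. Genes of 20 kb and longer, 999 in all, lay in kept blocks for 24.6% and in merged blocks for 10.0%. Most pairs of adjacent genes were together at both stages or apart at both. They shared a domain at both stages for 76.2% and at neither for 11.4%. Such pairs do not count all the genes of a domain. Of 13814 pairs of neighbouring genes, 81.7% shared a domain at stage 15 and 83.0% at stage 5. Of the pairs that shared one at stage 5, 91.8% (91.3 to 92.3%) still did at stage 15, and 67.2% of those apart at stage 5 were still apart.

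For each gene, the domain that held its midpoint was called longer or shorter at stage 15 when the lengths differed by more than 5 kb. A gene cut by a boundary reaches beyond that domain. Over all 13819 protein-coding genes with a domain at both stages, 25.5% had a longer domain at stage 15, 36.3% a shorter one and 38.2% one within 5 kb. The median difference was 0 kb. These shares are the background for the gene lists below.

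Genes of blastoderm patterning and the early zygotic genes, 53 in 6 lists, lay in 47 blocks. Of the 52 with a domain at both stages, 26 had a longer domain at stage 15 (50.0%, interval 36.9 to 63.1%), 9 a shorter one (17.3%) and 17 one within 5 kb. By class, 14 of the 53 were in kept blocks (26.4%), 2 in split (3.77%), 12 in merged (22.6%) and 24 in rearranged ones (45.3%), beside 32%, 16.1%, 8.77% and 42.5% of all protein-coding genes. The gap gene Kr lay beyond the outermost shared boundary of 2R. In blocks without left-out bins 12 of 26 had a longer domain and 2 a shorter one, beside 19.2% and 25.2% of all protein-coding genes there. With the mof RNAi list in place of the control list at stage 5, 29 of 52 had a longer domain and 8 a shorter one, beside 24.7% and 41.8% of all genes. With only the stage 5 boundaries called in both stage 5 lists, 22 of 52 had a longer domain and 16 a shorter one (30.8%), beside 16.9% and 51.8% of all genes. Genes that share a domain count together here, so the interval is too narrow. The lists were chosen with it already known from these data that several of these genes lie at stage 5 boundaries, so the count is not independent of that.

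The early zygotic genes are transcribed first after fertilisation and serve cellularisation, sex determination and the timing of the cell cycle. Of 11, 9 had a longer domain at stage 15 and 1 a shorter one, and the median difference was 27.5 kb. In blocks without left-out bins there were 3 of the 11 (run, Sry-alpha and halo), each with a longer domain. The largest gain was at run, which is also a pair-rule gene and encodes a Runt domain transcription factor. The domain at the midpoint of run spanned 130 kb at stage 15, against 15 kb at stage 5, when domains of 47.5 and 65 kb flanked it on X. The stage 5 boundary at X 20695000 lay inside run, so the gene reached from the 15 kb domain into that of 65 kb. The size of the gain thus rests on the placement by midpoint. The Sry-alpha gene, which acts in cellularisation, lay in a domain of 35 kb at stage 15, against 17.5 kb at stage 5. The stage 5 boundary that ended that shorter domain, at 3R 30038751 to 30041250, lay 0.281 kb from the annotated end of Sry-alpha and at score percentile 1.08 of its list. The annotation gives Sry-alpha and its neighbour Sry-beta the same ends, so the boundary lies as close to both.

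Sxl, the switch gene of sex determination, and nullo, which acts in cellularisation, shared a domain of 82.5 kb at stage 15, against 55 kb at stage 5. The domain of sc, a proneural and X-counting factor, was 125 kb at stage 15 and 47.5 kb at stage 5, and that of slam, needed for cellularisation, was 72.5 kb and 17.5 kb. The domain of term was 82.5 kb at stage 15 and 32.2 kb at stage 5, and that of bnk, a further cellularisation gene, was 70 kb and 57.5 kb. The domain of halo, a regulator of lipid droplet transport, was 110 kb at stage 15 and 97.5 kb at stage 5. sisA lay in a kept domain of 122.5 kb at stage 15 and 117.5 kb at stage 5. The exception was Z600, an inhibitor of mitosis also called frs, with 60 kb at stage 15 and 152.5 kb at stage 5.

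**Figure D4:**
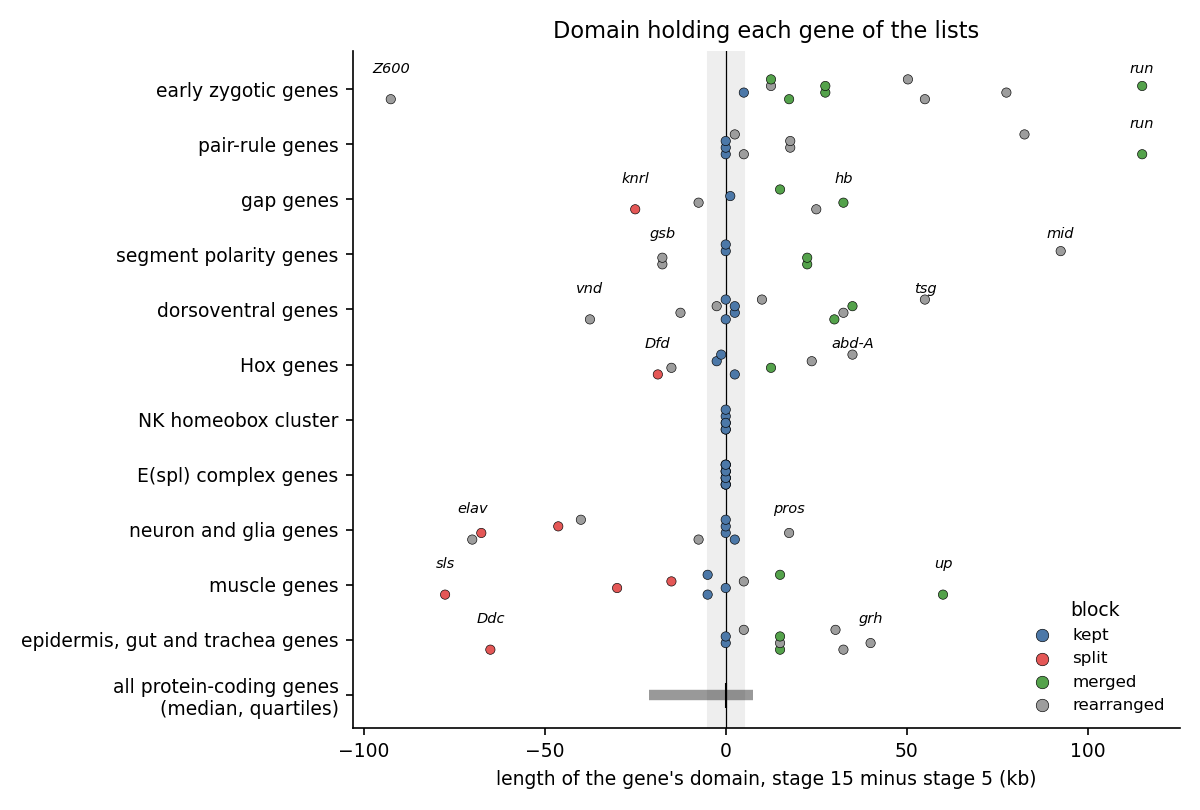
Length of the domain holding each gene at stage 15 minus that at stage 5 in kb (horizontal axis), by gene list, coloured by class of block; the grey band marks 5 kb either way and the bottom bar the quartiles of all protein-coding genes. Of the early zygotic genes 9 of 11 lie to the right of the band, and the E(spl) and NK genes all lie at 0. Left of the band lie 5 of 10 neuron and glia genes, beside 36.3% of all protein-coding genes.

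The pair-rule genes set up alternate segments. Of 9, 3 lay in kept domains (eve in 17.5 kb, odd in 87.5 kb and ftz in 65 kb at both stages), 4 had a longer domain at stage 15 and none a shorter one. The domain of prd was 122.5 kb at stage 15, against 40 kb at stage 5. slp1 and slp2 shared one of 67.5 kb at stage 15, against 49.7 kb at stage 5, in a rearranged block of 570.6 kb with 11 domains at stage 15 and 7 at stage 5. hry and opa, also in rearranged blocks, had domains within 5 kb of each other at the 2 stages. Of the gap genes, which divide the embryo into broad regions, hb and kni lay in merged blocks. The hb domain was 72.5 kb at stage 15, against 40 kb at stage 5 between neighbours of 17.5 kb on either side, and that of kni was 92.5 kb, against 77.5 kb. The neighbouring paralog of kni, knrl, went the other way, with 77.5 kb at stage 15 and 102.5 kb at stage 5. tll had 45 kb at stage 15 and 20 kb at stage 5, and hkb 42.5 kb and 50 kb, both in rearranged blocks. gt lay in a kept domain of 25 kb at stage 15 and 23.8 kb at stage 5.

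The segment polarity genes wg, a Wnt ligand, and hh, the Hedgehog ligand, lay in kept domains of 107.5 and 30 kb at both stages. The paralogous homeobox genes en and inv shared a domain of 77.5 kb at stage 15, against 55 kb at stage 5. The T-box gene mid had a domain of 155 kb at stage 15 and 62.5 kb at stage 5, and gsb and gsb-n shared one of 47.5 kb and 65 kb, in rearranged blocks. Of the dorsoventral genes, twi, zen, sim and brk were in kept domains. The BMP ligand dpp and its antagonist sog both lay in merged blocks. The domain at the midpoint of dpp was 72.5 kb at stage 15, against 37.5 kb at stage 5, and at that of sog 60 kb, against 30 kb. Counted from the left ends of their blocks, dpp ran from 8.37 to 39.8 kb and sog from 8.28 to 38.4 kb. The inner stage 5 boundary thus lay inside each gene, and the shorter domain held neither whole. tsg, a partner of Sog, had 92.5 kb at stage 15 and 37.5 kb at stage 5. sna, the mesodermal repressor, had 70 kb at stage 15 and 37.5 kb at stage 5, and ind 57.5 kb and 47.5 kb. Shorter domains at stage 15 were those of rho, with 25 kb against 37.5 kb at stage 5, and vnd, with 67.5 kb against 105 kb, and tld had 35 kb and 37.5 kb. The stage 5 ends of the blocks of run, Sry-alpha, kni, en, dpp and sog were all present in the mof RNAi list, and it held 1 boundary inside each. In the run block the control list held 2, at 20680000 and 20695000. The mof RNAi list did not hold both ends of the merged blocks of hb and halo.

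Among the Hox genes, which assign identity along the body axis, lab, pb and Scr lay in kept domains, as did zen beside pb. The domain of Dfd, 58.8 kb at stage 5, was split at stage 15 into 20 and 40 kb, the larger holding Dfd. The Antp block of 175 kb had 2 domains of 87.5 kb at stage 15, against 5 of 63.8, 18.8, 42.5, 37.5 and 12.5 kb at stage 5. The domain at the midpoint of Antp was thus 87.5 kb at stage 15 and 63.8 kb at stage 5, and the mof RNAi list held 4 boundaries inside the block. The Antp gene ran from -16.25 to 86.7 kb from the left end of the block, so neither domain held it whole. In the bithorax complex the domain at the midpoint of abd-A was 70 kb at stage 15 and 35 kb at stage 5. At the midpoint of Ubx it was 47.5 kb and 62.5 kb, and at that of Abd-B 50 kb and 37.5 kb. Counted from the left ends of their blocks, Ubx ran from 1.62 to 79.4 kb and Abd-B from 7.21 to 52.2 kb. The domain at the midpoint thus held Ubx whole at neither stage and Abd-B not whole at stage 5. By their midpoints, no 2 Hox genes shared a domain at either stage. At stage 5 the ends of Scr and Antp both reached into the domain of ftz between them.

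Every listed gene of 2 developmental clusters lay in a kept domain, a description, since neighbours in a cluster share domains. The E(spl) complex is known for targets of Notch signalling. All 12 of its listed genes lay in a single domain of 60 kb at 3R 25982501 to 26042500 at both stages. The ends of this domain were also in the mof RNAi list, with no boundary inside. All 6 genes of the NK homeobox cluster, which pattern the mesoderm, lay in 4 kept domains of identical length at both stages. These held tin and bap (30 kb), lbl and lbe (40 kb), C15 (32.5 kb) and slou (60 kb).

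**Figure D5:**
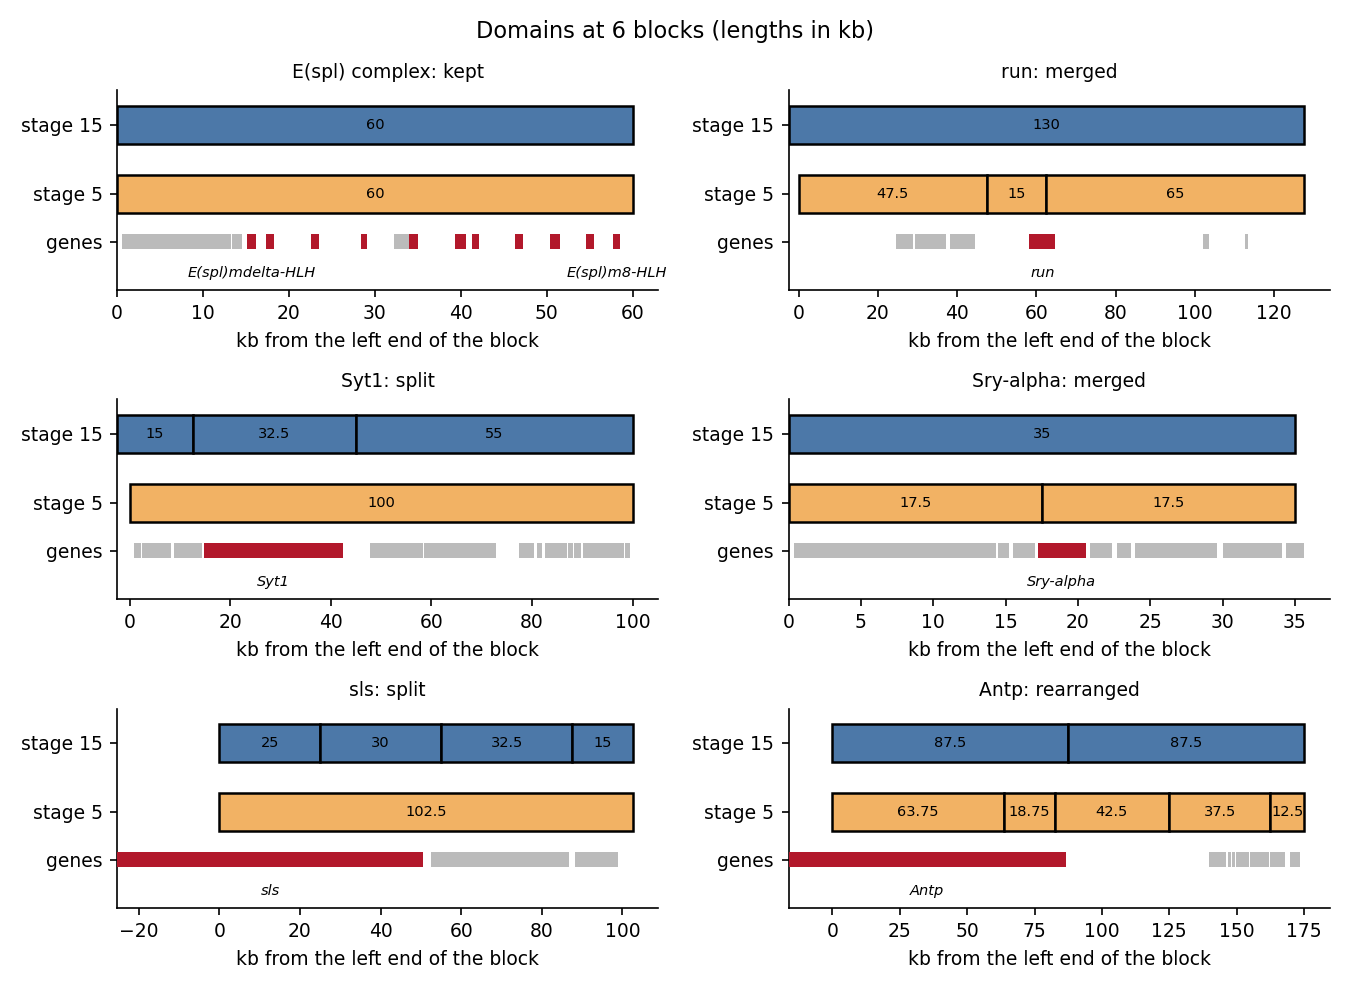
Domains at stage 15 (blue) and stage 5 control (orange) in 6 blocks, with their lengths in kb; the horizontal axis is the distance in kb from the left end of the block at stage 5, grey bars are protein-coding genes, and red ones the named genes (on the E(spl) panel, every gene with E(spl) in its name). The E(spl) domain is 60 kb at both stages, Syt1 and sls lie in domains cut at stage 15, and the midpoints of run, Sry-alpha and Antp lie in domains that are longer at stage 15.

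Genes of late embryonic tissues, 29 in 3 lists, showed no common direction: 9 had a longer domain at stage 15, 9 a shorter one and 11 one within 5 kb. By class, 6 of them lay in split blocks (20.7%), near the 16.1% of all protein-coding genes. The 10 neuron and glia genes had 5 shorter domains at stage 15 and 1 longer one, pros. The interval of the shorter share, 23.7 to 76.3%, held the 36.3% of all protein-coding genes. Syt1, the calcium sensor of neurotransmitter release, lay in a domain of 32.5 kb at stage 15, against 100 kb at stage 5, which was cut into 15, 32.5 and 55 kb. Counted from the left end of the block, the middle piece ran from 12.5 to 45 kb and the Syt1 gene from 14.8 to 42.5 kb. The domain of brp, a scaffold of the active zone, was 50 kb at stage 15 and 96.2 kb at stage 5. That of elav, an RNA-binding protein of neurons, was 35 kb and 105 kb, in a rearranged block. nSyb, a vesicle protein, had 30 kb at stage 15 and 70 kb at stage 5. cpo had 100 kb at stage 15 and 107.5 kb at stage 5, and pros 37.5 kb and 20 kb. repo, Syx1A, futsch and para lay in kept domains.

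The 9 muscle genes had 3 shorter (33.3%) and 2 longer domains (22.2%), near the 36.3% and 25.5% of all protein-coding genes. The domain of sls, a titin-like protein, was 25 kb at stage 15 and 102.5 kb at stage 5. That of Mhc, the muscle myosin heavy chain, was 60 kb at stage 15 and 75 kb at stage 5, and that of the transcription factor Mef2 was 32.5 kb and 62.5 kb. The mof RNAi list held no boundary inside the blocks of Syt1, brp, Mhc or Mef2 and 2 inside that of sls. Prm, Tm1 and Tm2 lay in kept domains, and Mlc2 had 30 kb at stage 15 and 25 kb at stage 5. The troponin genes went the other way. up (troponin T) lay in 102.5 kb at stage 15 and 42.5 kb at stage 5, and wupA (troponin I) in 52.5 kb and 37.5 kb. Of the 10 genes of epidermis, gut and trachea, 6 had a longer domain at stage 15. The longest gain was that of grh, an epidermal transcription factor, with 60 kb at stage 15 and 20 kb at stage 5. The single shorter one was that of Ddc, dopa decarboxylase, with 17.5 kb at stage 15 and 82.5 kb at stage 5. The GATA factors srp and GATAe shared a domain of 77.5 kb at stage 15, against 62.5 kb at stage 5. vvl had 112.5 kb at stage 15 and 82.2 kb at stage 5, ple 55 kb and 40 kb, and trh 132.5 kb and 127.5 kb, while btl and fkh lay in kept domains. sna counts in this list as well.

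Of the gene families that are expressed broadly, cytoplasmic ribosomal proteins (91 genes) had 33 members in kept blocks, 16 in split and 4 in merged ones. Mitochondrial ribosomal proteins (73 genes) had 30, 9 and 6, and proteasome subunits (48 genes) had 17, 6 and 2. Their kept shares of 36.3%, 41.1% and 35.4% had intervals that all held the 32% of all genes. Odorant, gustatory and ionotropic receptors (179 genes) lay in kept blocks for 26.3%. Of the 64 neighbouring receptor pairs within 50 kb, 60 shared a domain at stage 15 and 60 at stage 5.

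Most Osiris genes and most Twdl genes each lay in a single block, and the Cpr cuticle genes were spread over many. Of the 25 Osiris genes, a family expressed where cuticle forms, 22 lay in 1 rearranged block on 3R from 6147501 to 6350000. Its domains were 75, 17.5, 45 and 62.5 kb at stage 15, against 72.5, 35 and 95 kb at stage 5. Of the 23 Twdl cuticle proteins, 13 lay in 1 rearranged block on 3R, together in a domain of 160 kb at stage 15. At stage 5, 12 of these lay in a domain of 65 kb and TwdlQ in the next, of 207.5 kb. The 70 Cpr genes lay in 36 domains at stage 15 and 34 at stage 5, with 19 members in kept, 9 in split, 7 in merged and 35 in rearranged blocks. The Osiris block had 6 left-out bins at stage 5 and the Twdl block 4, and their part in these differences was not tested.

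Some kept domains were large and rich in genes. A kept domain of 92.5 kb at 2R 12345001 to 12437500 held 32 genes, among them Cpr49Ac and other cuticle genes of that cluster. One of 37.5 kb at stage 15 and 35 kb at stage 5, at 2R 18377501 to 18412500, held 22, including imd, an adaptor of the innate immune pathway, and GstE glutathione transferases. The kept domain with the most genes, 111, was the histone cluster at 2L 21395001 to 21575000, 175 kb at stage 15 and 180 kb at stage 5. It held 54 left-out bins and near-identical copies, so its inside is uncertain. The longest kept domain without left-out bins was 117.5 kb at 2L 2585001 to 2702500, with Tmtc1 as its longest gene. It was followed by 1 of 112.5 kb at stage 15 and 110 kb at stage 5 with beat-VI, an adhesion molecule gene.

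The split block with the most genes, 47, was at 3L 16232501 to 16347500, with pieces of 102.5 and 15 kb at stage 15 against 115 kb at stage 5. A block at X 19637501 to 19750000 without left-out bins held 29 genes, among them dome, the receptor of the JAK/STAT pathway, and Elys, a nuclear pore protein. It had domains of 27.5, 37.5 and 47.5 kb at stage 15, against 112.5 kb at stage 5, and the mof RNAi list had both ends and no boundary inside. The most finely split was a domain of 245 kb at 3R 27677501 to 27922500, holding Ets98B and the Polycomb-group gene Sce. It had 22.5, 35, 15, 15, 15 and 142.5 kb at stage 15, and the mof RNAi list held no boundary inside it, with 9 left-out bins in the control list. A domain of 232.5 kb at 2R 13197501 to 13430000 with 40 genes was also cut into 6, but there the mof RNAi list held 4 boundaries inside.

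The merged block with the most stage 5 domains was at 3L 7325001 to 7510000, a single domain of 185 kb at stage 15, against 45, 15, 50, 55 and 20 kb at stage 5. Its 42 genes included the insulator gene CTCF and lark. A domain of 245 kb at stage 15 at 2R 19997501 to 20245000 covered 4 at stage 5 (32.5, 42.5, 45 and 127.5 kb) and held 18w, which encodes a Toll-family receptor. The apoptosis gene hid lay in a domain of 132.5 kb at stage 15, against 17.5, 50 and 62.5 kb over the block at stage 5. On X the paralogous homeobox genes B-H1 and B-H2 lay in a block of 120 kb that was 1 domain at stage 15, against 95 and 25 kb at stage 5. The LIM-only gene Bx lay in one of 117.5 kb at stage 15, against 32.5, 72.5 and 15 kb over its block at stage 5. The blocks of 18w, hid, B-H1 and Bx had no left-out bins. The mof RNAi list held 2 boundaries inside each of the blocks of CTCF, 18w and hid, and 1 inside each of those of B-H1 and Bx. These were fewer than in the control list for CTCF, 18w and Bx and as many for hid and B-H1. It did not hold both ends of the B-H1 block.

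In rearranged blocks with 2 domains at each stage the inner boundary lay farthest from its stage 5 place in the block of the RNA-binding genes bru1 and bru2, by 117.5 kb. The domains there were 40 and 207.5 kb at stage 15, against 160 and 90 kb at stage 5. It lay 92.5 kb away in the block of the translational repressor pum, with 107.5 and 57.5 kb at stage 15 against 15 and 150 kb at stage 5. It lay 77.5 kb away in the block of Ptp99A and of stg, the Cdc25 phosphatase of the embryonic cell cycle. A shift of this kind is 1 boundary called at each stage and not a movement that was followed.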

How the data were processed

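The authors deposited the boundary lists as positions on 2.5 kb bins of dm6, per the labels and the submitters' processing notes, each boundary with a deposited score whose scale is not stated. For the aligner, the boundary caller and its settings, the sources used here give nothing. A stage 5 list named in the labels was identical to the control list and was not used. Titles set the groups, because mof RNAi strain labels name control RNAi mothers beside stock 58281, and the treatment protocol names driver stock 7062 where the stage 5 strains name 7063.

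Boundaries were placed at interval midpoints (140 stage 5 control intervals span more than 1 bin) and matched one to one within 2.5 kb, nearest first. The scores were ranked within a list only. Gaps in the stage 5 bin numbers were counted as left-out bins, and numbering that runs over every bin cannot show them. Genes came from a table of RefSeq genes of the release 6 assembly without strand, by midpoint. Blocks were checked on simulated lists (1250 of 1250 recovered). Python 3.11.15, pandas 2.3.3 and scipy 1.17.1 were used.

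Members, gene lists and comparisons were chosen with earlier results of these data known, and the 5 kb limit on gene domains after seeing values. Named are, per class, the 5 blocks with the most genes and the 5 longest without left-out bins, the most divided splits and merges, the largest shifts, all listed developmental genes, and the 10 most negative inner boundaries per stage, of which examples are given. The 57 samples other than Hi-C were not analysed here, and of the listed genes bt was left out with chromosome 4.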

Additional observations from a re-analysis of the deposited data

How the results depend on the processing

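Of 168 values recomputed under other settings, 122 stayed within 1.5 times the count, or within the interval of the share or median, and 46 did not; the causes were not tested beyond what each setting removes. With matches in the same bin only, 541 domains were kept at each stage, split blocks held 325 domains at stage 15 and 144 at stage 5, merged blocks 83 and 180, and the genes numbered 2847 in kept, 1393 in split and 686 in merged blocks. Within 10 kb, rearranged domains numbered 697 at stage 15 and 687 at stage 5, with a stage 5 median of 50 kb and 3138 genes. In blocks without left-out bins, which are fewer, split domains numbered 222 at stage 15 and 103 at stage 5, merged 94 and 200, and rearranged 291 and 275. Their stage 5 medians were 27.5 kb (kept), 60 kb (split) and 35 kb (rearranged), their genes 1025 (split), 751 (merged) and 1682 (rearranged), and 12 genes of the 6 blastoderm lists had a longer domain. With negative scores only, 752 stage 5 domains were rearranged and the median split domain was 87.2 kb. With the 194 stage 15 boundaries of highest score dropped to equal the list sizes, the median merged domain was 35 kb at stage 5, and 184 blocks were merged and 206 split, against 148 and 232 with the full lists. With the 2039 stage 5 boundaries called in both stage 5 lists, a setting chosen after seeing the data, merged domains numbered 79 at stage 15 and 165 at stage 5. The stage 5 medians were then 78.8 kb (split) and 52.5 kb (rearranged), the genes 3414 (split) and 665 (merged), and of the 52 genes of the 6 blastoderm lists 22 had a longer and 16 a shorter domain, against 26 and 9 with the full list. A gene end lay within 1 kb of 52.0% and within 5 kb of 74.3% of the stage 15 boundaries inside split blocks, and within 1 kb of 36.5% of the stage 5 boundaries inside merged blocks. No paired analysis was possible because each condition has 1 pooled list, and for the same reason no library could be left out. The planned counts of promoter motifs were not run, since no promoter sequence was used here. Depth, which is unknown, limits which boundaries either list can hold.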

Other observations

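Kept domains lay side by side in places. The 827 kept domains formed 383 runs, of which 178 were single domains and 34 held 5 or more domains, 215 in all. These runs were chosen after seeing the data. Kept blocks were 827 of the 1593 blocks, so runs also arise when classes are placed at random. Whether the runs exceed such a random order was not tested. The longest run held 11 domains over 335 kb at 3R 24787501 to 25122500, with 75 protein-coding genes, among them tnc, TTLL5 and Ets96B, and 8 of the 11 were also kept in the stage 5 mof RNAi list. A run of 9 domains over 422.5 kb at 3R 14482501 to 14905000 had no left-out bins and held 52 genes, among them btsz, kibra, a Hippo pathway component, and stumps, an adaptor of FGF signalling. A run of 8 domains over 328.1 kb on 2R held vg, the wing selector gene, and the Polycomb-group paralogs Psc and Su(z)2. A run of 7 domains over 315.3 kb at 2L 7220001 to 7535312 held the Wnt genes wg, Wnt4, Wnt6 and Wnt10, and 5 of the 7 were kept in the mof RNAi list.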
